A study of Mus musculus with 6 samples.

Results

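The genes described here make, bind, move or remove extracellular adenosine: the adenosine receptor genes Adora1, Adora2a and Adora2b, the surface enzyme genes Entpd1, Entpd2, Entpd3, Enpp1 and Nt5e, the nucleoside transporter gene Slc29a1 and the adenosine deaminase gene Ada. They were chosen by name from the gene symbols of the deposited table, 10 genes of 37583, and each symbol matched a single gene identifier. RNA was sequenced from EGFP-positive intercalated cells, the acid- and base-secreting cells of the collecting duct, which were sorted in 2 rounds from the renal medulla of B1 VATPase EGFP transgenic mice. The transgene is described as marking intercalated cells, and no unmarked or unsorted sample was among the libraries compared. The first group, sham, had surgery without ischemia, and the second, IRI, had renal ischemia reperfusion injury, in which blood flow is stopped and then restored. Both groups carried the same transgene, were 12 weeks old and were sampled 2 h after surgery. Each group had 3 samples, and each sample pooled 4 kidneys of 2 mice. Whether the pools of 1 group stem from separate experiments is not stated, and the p-values therefore reflect only how far these pools differ.

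Cells that are short of oxygen or injured release ATP. Ectonucleoside triphosphate diphosphohydrolases (NTPDases, the Entpd genes) and the phosphodiesterase Enpp1 cut ATP down to AMP outside the cell, and the ecto-5'-nucleotidase CD73, encoded by Nt5e, cuts AMP to adenosine. Adenosine then acts on G protein-coupled receptors of the cell surface, the Adora1 product through inhibitory G proteins and the products of Adora2a and Adora2b through stimulatory G proteins that raise cAMP, until the transporter encoded by Slc29a1 takes it up or adenosine deaminase turns it into inosine.

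At 2 h after IRI the cells held more RNA of 2 adenosine receptors, Adora1 and Adora2b, and less RNA of Nt5e, the enzyme that makes adenosine, than after sham surgery. The surface NTPDase genes moved apart, with Entpd2 higher and Entpd3 lower. Of 15 alternative ways of testing, 9 lost the Entpd2 call and 3 lost the Entpd3 call. Of the 10 genes, 8 had enough reads to be tested; 3 of these rose, 2 fell and 3 did not pass the test. Calls were made with edgeR's quasi-likelihood test at an adjusted p under 0.05 over 13881 genes, and the background in this comparison was high: 45.5% of all genes tested were called, 24.2% as higher and 21.2% as lower. Of the 8, the 5 genes called were also those whose sham and IRI samples did not overlap, against 56.4% of all genes tested. The median log2 fold change of the 8 genes was -0.26, and that of all genes tested was 0.00. A share of 5 in 8 near this background is no result about the genes as a set, and the values of each gene are given in turn.

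The sequences around the transcription start are shown for the genes with changes beyond 1 on the log2 scale in the tested set, Adora1, Adora2b and Entpd3, and for Nt5e, whose change was just under it. They run from 250 bases before to 50 after the start, 5′ to 3′ on the gene's strand, and come from RefSeq on GRCm38.p6. The counts were made on mm9, so these positions were not joined to the reads. Capitals mark the core of the hypoxia response element, ACGTG or GCGTG on this strand or its complement CACGT or CACGC. The core is the short sequence at which hypoxia-inducible factors bind. Adora1 has 2 annotated starts, at chr1:134235408-134235707 and chr1:134234807-134235106 on the minus strand. The other regions are chr11:62248734-62249033 on the plus strand for Adora2b, chr9:88327359-88327658 on the plus strand for Nt5e and chr9:120539568-120539867 on the plus strand for Entpd3.
Adora1 start 1: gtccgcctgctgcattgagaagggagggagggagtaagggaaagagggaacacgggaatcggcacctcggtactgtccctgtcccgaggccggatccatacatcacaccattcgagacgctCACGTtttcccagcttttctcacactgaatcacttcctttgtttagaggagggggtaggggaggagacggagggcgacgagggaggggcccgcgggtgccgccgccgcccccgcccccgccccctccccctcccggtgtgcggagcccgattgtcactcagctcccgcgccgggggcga
Adora1 start 2: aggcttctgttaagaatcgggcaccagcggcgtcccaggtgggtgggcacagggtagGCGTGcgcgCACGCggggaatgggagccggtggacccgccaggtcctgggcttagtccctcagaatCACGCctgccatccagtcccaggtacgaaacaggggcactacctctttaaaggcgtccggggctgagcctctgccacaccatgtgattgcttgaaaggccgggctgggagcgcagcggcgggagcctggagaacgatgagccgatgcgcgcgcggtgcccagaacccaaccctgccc
Adora2b: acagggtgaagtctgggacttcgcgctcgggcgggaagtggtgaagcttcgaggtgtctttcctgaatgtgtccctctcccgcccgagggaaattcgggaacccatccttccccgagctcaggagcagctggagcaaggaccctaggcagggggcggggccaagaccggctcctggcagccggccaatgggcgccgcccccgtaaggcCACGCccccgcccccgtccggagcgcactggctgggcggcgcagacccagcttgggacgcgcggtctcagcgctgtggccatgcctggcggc
Nt5e: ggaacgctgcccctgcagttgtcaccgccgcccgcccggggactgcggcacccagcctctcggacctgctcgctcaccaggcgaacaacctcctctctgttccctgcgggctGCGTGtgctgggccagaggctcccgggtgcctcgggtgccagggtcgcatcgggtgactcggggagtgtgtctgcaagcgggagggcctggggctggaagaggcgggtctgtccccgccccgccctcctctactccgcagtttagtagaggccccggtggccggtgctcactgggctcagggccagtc
Entpd3: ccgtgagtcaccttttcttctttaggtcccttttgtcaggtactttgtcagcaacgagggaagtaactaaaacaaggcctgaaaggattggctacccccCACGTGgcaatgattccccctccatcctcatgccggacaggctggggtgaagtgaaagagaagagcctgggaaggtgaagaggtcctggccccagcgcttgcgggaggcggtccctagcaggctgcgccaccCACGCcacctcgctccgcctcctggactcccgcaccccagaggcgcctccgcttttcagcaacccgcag

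Each of the matched genes, whether it rose, fell or had no call, had at least 1 promoter with a core. RefSeq entries were matched for 9 of the 10 genes, with 18 promoters among them, and 13 of the 18 held at least 1 core. Slc29a1 alone supplied 8 of the 18, and some of these had no core. The share over all 32851 promoters of the same length was 43.8%. It counts promoters, and no share of genes with a core in any promoter is given beside it. The Adora2b and Nt5e promoters held 1 match each. The promoter of Entpd3, which fell, held 3 matches, of which 2 overlap in the palindrome CACGTG. The second Adora1 start also held 3. These promoters were rich in G and C, at 70% for Adora2b, 71% for Nt5e, 66% for both Adora1 starts and 60.3% for Entpd3, against a median of 52.7% for all promoters. The part of base composition in the count of matches was not tested. The full cAMP response element TGACGTCA, which reads the same on both strands, was in none of the 18 promoters and in 1.79% of all promoters. A match or its lack describes the letters of these windows and not binding of a factor.

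The libraries held between 17421669 and 24245330 reads counted in genes, which were 49.1% to 50.7% of the reads listed for each library. All 10 intercalated cell markers listed passed the filter on low counts, led by the carbonic anhydrase gene Car2, at 9443 ± 987 CPM (counts scaled to library size; SD, n = 3) in sham and 9558 ± 1192 in IRI. Markers of principal cells, the neighbouring water-transporting cells, were also high, summing to 12241 to 13662 CPM in sham and 6071 to 11820 in IRI with Aqp2 on top, and those of the thick ascending limb summed to 1268 to 2165 and 879 to 1521 with Umod on top. The labels give the tissue as epididymis and name control by CX3CR1 beside the B1 VATPase transgene. The listed epididymis markers summed to at least 4.22 and at most 13.4 CPM in the 6 samples, with Lcn5, Lcn8 and Spag11b at 0 throughout and Defb2 on top. Neutrophil markers, led by S100a8, reached at most 0.118 CPM in sham and 4.63 in IRI, and platelet and red cell markers, led by Itga2b, summed to 26.1 to 33.0 and 13.0 to 18.1. Itga2b itself was called lower (29.2 ± 3.28 to 10.8 ± 3.12 CPM), whereas Ppbp of the same list was called higher, with 5 sham and 145 IRI reads, and the untested Pf4 and Hba-a1 had 5 and 8 sham reads and 43 and 56 IRI reads. Of the tested markers, 8 of 10 for intercalated cells, 5 of 7 for principal cells and 5 of 6 for the thick ascending limb had no call. The median log2 fold changes of these 3 lists were -0.005, -0.41 and -0.39. Their remaining tested genes were called lower in IRI: Atp6v1b1 and Kit, Aqp3 and Hsd11b2, and Kcnj1 of the thick ascending limb list. The part of these shifts in the values of the 10 genes was not tested.

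Adora1 encodes the adenosine receptor with the best known role in the nephron, where it slows filtration and alters tubular transport. Its level was 36.8, 28.0 and 35.2 CPM in sham samples 1, 2 and 3 and 165, 155 and 93.5 CPM in IRI samples 1, 2 and 3. The groups did not overlap, and IRI sample 3 was the lowest of its group. Adora1 rose 4.13-fold, a log2 fold change of 2.05 ± 0.22 (SE; 95% interval 1.53 to 2.57; edgeR adjusted p = 0.000301). Per unit of gene length, it went from 4.08 ± 0.566 RPKM (reads scaled by gene length and library size; SD, n = 3) to 16.4 ± 4.71. On the reference annotation its exons overlap those of Mybph on the opposite strand; the counting did not use strand, and Mybph held 17 reads in all 6 samples. In bulk samples, a change in the number of cells of a type and a change in RNA per cell cannot be told apart.

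Adora2b encodes the low-affinity adenosine receptor, which responds when extracellular adenosine is high. Its level was 2.75, 2.07 and 2.77 CPM in the sham samples and 15.4, 20.9 and 12.7 CPM in the IRI samples. The groups were far apart, and the spread within IRI was wider than that within sham. Adora2b rose 6.46-fold, a log2 fold change of 2.69 ± 0.23 (SE; 95% interval 2.16 to 3.22; edgeR adjusted p = 5.38e-05). In RPKM the mean went from 1.39 ± 0.216 to 8.75 ± 2.21 (SD, n = 3).

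Adora2a, the receptor of vessels and immune cells through which adenosine widens vessels and dampens inflammation, was close to the limit of detection. It had 1, 1 and 0 reads in the sham samples and 14, 18 and 3 in the IRI samples. The 0 reads of sham sample 3 allow a level of up to 0.163 CPM, counting 3 reads as the floor. Read sums of 2 and 35 gave a ratio of 18.2 for IRI over sham after scaling, with a 95% exact counting interval of 4.69 to 157. The interval covers counting error only, and IRI sample 3 was much nearer to sham than samples 1 and 2. Adora2a did not pass the filter on low counts; with no filter, edgeR gave a log2 fold change of 3.92 and an adjusted p of 0.00305. It also passed the filter without any 1 of the sham samples or without IRI sample 3, and was called higher in these 4 fits (adjusted p 0.00297 to 0.0303). All 4 fits keep IRI samples 1 and 2, and the gene passed the filter only through their reads. It was not tested without IRI sample 1 or without IRI sample 2, so these calls are no separate support. Endothelial markers, led by Egfl7, summed to 5.38 to 10.7 CPM in sham and 8.89 to 17.8 in IRI. Of these markers 4 of 8 passed the filter, with a median log2 fold change of 1.48; edgeR called 0 (0 also at an unadjusted p under 0.05), and DESeq2 and limma-voom called 1 each. Of the macrophage and dendritic cell markers, 7 of 11 were tested and 3 rose, Ptprc, Cd68 and Lyz2. The other tested markers, Csf1r, C1qa, C1qb and C1qc, had no call (edgeR adjusted p 0.649 to 0.962). The summed level of the list was 10.4 to 16.7 CPM in sham and 51.5 to 77.2 in IRI, of which Cd68 alone was 27.8 to 53.9 in IRI. The part of these cells in the reads of Adora2a was not tested. Adora3, the remaining adenosine receptor gene, had 10 sham and 9 IRI reads.

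**Figure D1:**
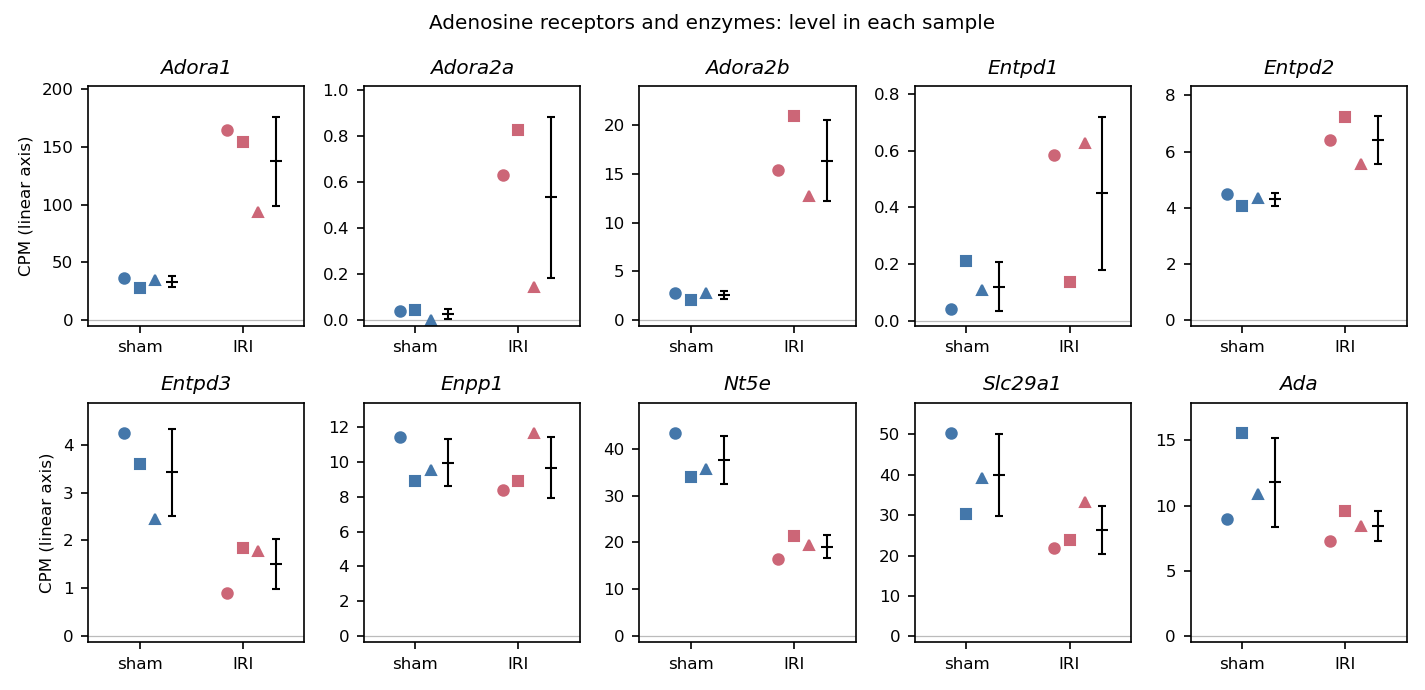
Level of each of the 10 genes in CPM (TMM-scaled, linear axes that differ between genes) in sham and IRI samples; circles, squares and triangles are samples 1, 2 and 3, and bars are the mean ± SD (n = 3). The IRI samples of Adora1, Adora2b and Entpd2 are higher than every sham sample, those of Nt5e and Entpd3 lie below, and the groups of Enpp1, Slc29a1, Ada and Entpd1 overlap.

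The balance between the receptors was also described, as the share of each gene in the summed RPKM of Adora1, Adora2a and Adora2b. The sum was 6.03, 4.59 and 5.81 RPKM in sham and 28.5, 29.8 and 17.9 in IRI, so that each IRI sample held more receptor RNA than any sham sample. Adora2b made up 25.1%, 24.8% and 26.1% of it in sham and 29.3%, 37.4% and 37.8% in IRI. The mean share went from 25.3% ± 0.683 to 34.8% ± 4.77 (SD, n = 3), a difference of 9.49 percentage points with no overlap of the groups. The exact two-sided permutation test gave p = 0.1, the smallest that 3 against 3 samples allow, so the design cannot reach 0.05 for this share. Adora1 remained the receptor gene with the larger share in all 6 samples. Taken from CPM, without the correction for gene length, the same difference was 3.74 points.

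Among the enzymes that start the breakdown of ATP, Entpd2 encodes an NTPDase that prefers ATP and releases ADP. Its level was 4.48, 4.05 and 4.35 CPM in sham and 6.42, 7.24 and 5.56 CPM in IRI. The groups did not overlap, but the gap between them was narrower than the spread within IRI. Entpd2 rose 1.49-fold, a log2 fold change of 0.58 ± 0.19 (SE; 95% interval 0.14 to 1.01; edgeR adjusted p = 0.0355), and this call was lost under 9 of 15 alternatives, including 5 of the 6 fits without 1 sample (adjusted p 0.0292 to 0.133). Its exons overlap those of Npdc1 on the same strand in the reference annotation, and Npdc1 had 9251 reads and a log2 fold change of 0.12 ± 0.09 (SE; edgeR adjusted p = 0.337).

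Entpd3 encodes an NTPDase that removes both ATP and ADP and is known from epithelia and neurons. Its level was 4.24, 3.59 and 2.45 CPM in sham and 0.898, 1.83 and 1.79 CPM in IRI. Every IRI sample was below every sham sample, with sham sample 3 the nearest to IRI. Entpd3 fell 2.28-fold, a log2 fold change of -1.19 ± 0.36 (SE; 95% interval -1.99 to -0.39; edgeR adjusted p = 0.0232). The call was lost without sham sample 1, sham sample 2 or IRI sample 1, and over the 6 fits without 1 sample the change ran from -1.42 to -0.92 (adjusted p 0.0207 to 0.0703).

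Entpd1, which encodes CD39, the NTPDase of vessels and leukocytes, had 1, 5 and 2 reads in sham and 13, 3 and 13 in IRI. The groups overlapped, since IRI sample 2 had fewer reads than sham sample 2. Sums of 8 and 29 reads gave a ratio of 3.78 (95% exact counting interval 1.69 to 9.57), and with no filter on low counts edgeR gave a log2 fold change of 1.83 and an adjusted p of 0.0983. Of the 4 fits without 1 sample in which it was tested, 1 called it higher, that without IRI sample 2 (2.28, adjusted p = 0.0344). That fit leaves out the IRI sample with the fewest reads, and the other fits gave adjusted p of 0.0675 to 0.213. In all 4 fits the gene passed the filter only through IRI samples 1 and 3, so the call is no separate support. The ratio was 6.54 without sham sample 2 and 2.69 without sham sample 1. The endothelial and macrophage marker sums given for Adora2a stand beside this gene too, and their part in its reads was not tested.

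Of the summed RPKM of the 3 surface NTPDases, Entpd3 held 36.7%, 34.5% and 25.4% in sham and 7.54%, 13.3% and 15.6% in IRI. Its mean share went from 32.2% ± 5.99 to 12.2% ± 4.17 (SD, n = 3; difference -20.0 points; exact two-sided permutation p = 0.1, the smallest possible). Entpd2 held 63.0%, 63.5% and 73.5% in sham and 87.7%, 85.7% and 79.0% in IRI, so it led these 3 genes in all 6 samples. The sum of the 3 genes was 3.14, 2.82 and 2.60 RPKM in sham and 3.18, 3.62 and 3.00 in IRI, and these ranges overlapped.

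**Figure D2:**
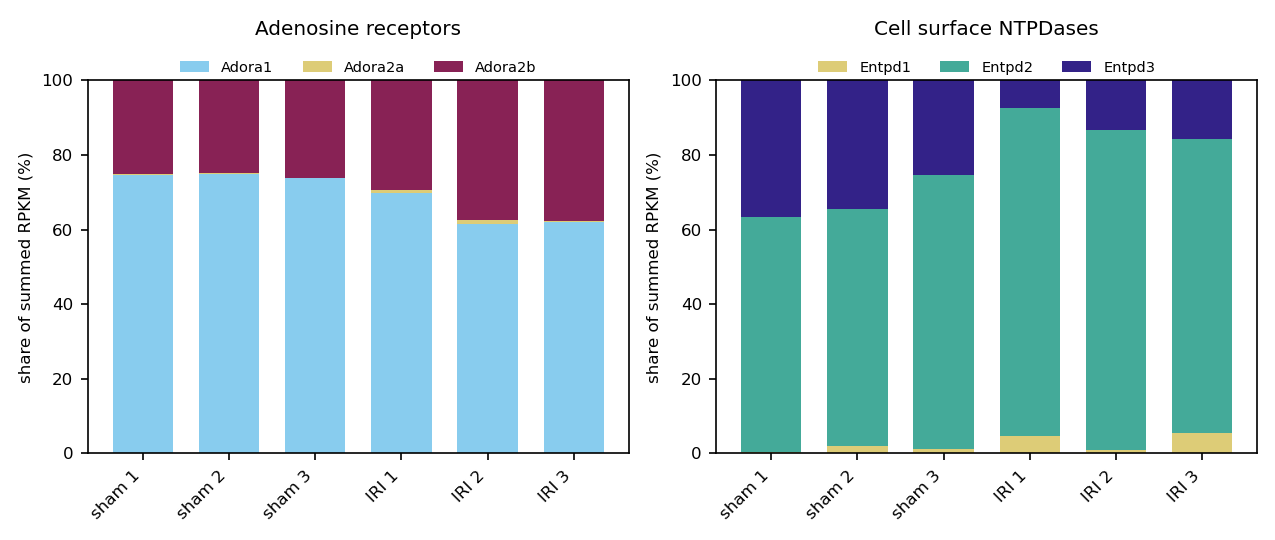
Share (%) of each gene in the summed RPKM of the adenosine receptors (left) and of the surface NTPDases (right), with 1 bar for each sample. In IRI samples Adora2b takes 29.3% to 37.8% of the receptor sum, against 24.8% to 26.1% in sham, and Entpd3 takes 7.54% to 15.6% of the NTPDase sum, against 25.4% to 36.7%.

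Enpp1, which makes AMP and pyrophosphate from ATP, was at 11.4, 8.90 and 9.52 CPM in sham and 8.40, 8.89 and 11.6 in IRI. The groups overlapped over most of their range. The log2 fold change was -0.05 ± 0.18 (SE; edgeR adjusted p = 0.855), and its 95% interval of -0.46 to 0.37 leaves room for a modest difference in either direction. Its sign turned without sham sample 1 (0.04) and without IRI sample 1 (0.047).

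Nt5e encodes CD73, the surface enzyme that produces adenosine from AMP. Its level was 43.3, 33.9 and 35.6 CPM in sham and 16.5, 21.4 and 19.5 CPM in IRI. The highest IRI sample was well below the lowest sham sample. Nt5e fell 1.97-fold, a log2 fold change of -0.98 ± 0.15 (SE; 95% interval -1.31 to -0.64; edgeR adjusted p = 0.000829). CD73 is also carried by cells of the proximal tubule, by fibroblasts and by lymphocytes. Proximal tubule markers summed to 4.43 to 11.0 CPM in sham and 2.61 to 6.38 in IRI, with 4 of 9 tested and only their top gene Lrp2 called, as lower. Fibroblast, pericyte and smooth muscle markers summed to 19.8 to 85.0 CPM in sham and 17.0 to 41.2 in IRI, most of it Dcn, with 3 of 11 tested, Acta2 and Tagln higher and Col3a1 at 0. Lymphocyte markers ran from 1.14 to 48.5 CPM in sham and 2.69 to 25.9 in IRI, led by Cd79a; of 4 tested, 0 were called by edgeR (0 at an unadjusted p under 0.05), DESeq2 or limma-voom. The part of these cells in the change of Nt5e was not tested.

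Slc29a1 encodes the equilibrative transporter ENT1, which carries adenosine across the membrane in both directions. Its level was 50.3, 30.2 and 39.2 CPM in sham and 21.96, 23.8 and 33.2 in IRI. IRI sample 3 lay above sham sample 2, so the groups overlapped. The log2 fold change was -0.60 ± 0.22 (SE; 95% interval -1.10 to -0.10; edgeR adjusted p = 0.0528), which did not pass the threshold. Under 7 of 15 alternatives it did pass, among them library size alone (-0.81, adjusted p = 0.0167) and DESeq2 (-0.61, adjusted p = 0.0183). The antisense gene Gm17080, which overlaps it, held 10 reads.

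Ada, which encodes the deaminase that turns adenosine into inosine, was at 8.96, 15.6 and 10.9 CPM in sham and 7.27, 9.62 and 8.45 in IRI. Sham sample 2 stood highest, and sham sample 1 fell inside the IRI range. The log2 fold change was -0.48 ± 0.22 (SE; 95% interval -0.99 to 0.03; edgeR adjusted p = 0.11), and no call was made. The log2 ratio of Nt5e RPKM to Ada RPKM, a measure of the RNA of the adenosine-making against the adenosine-removing enzyme, was 1.43, 0.28 and 0.87 in sham and 0.34, 0.31 and 0.36 in IRI. The group means of 0.86 ± 0.58 and 0.34 ± 0.03 (SD, n = 3) differed by -0.52, less than the spread within sham (exact two-sided permutation p = 0.4). The difference was -0.24 without sham sample 1 and -0.81 without sham sample 2 (exact permutation p = 0.8 and 0.2, where 0.2 is the smallest possible).

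**Figure D3:**
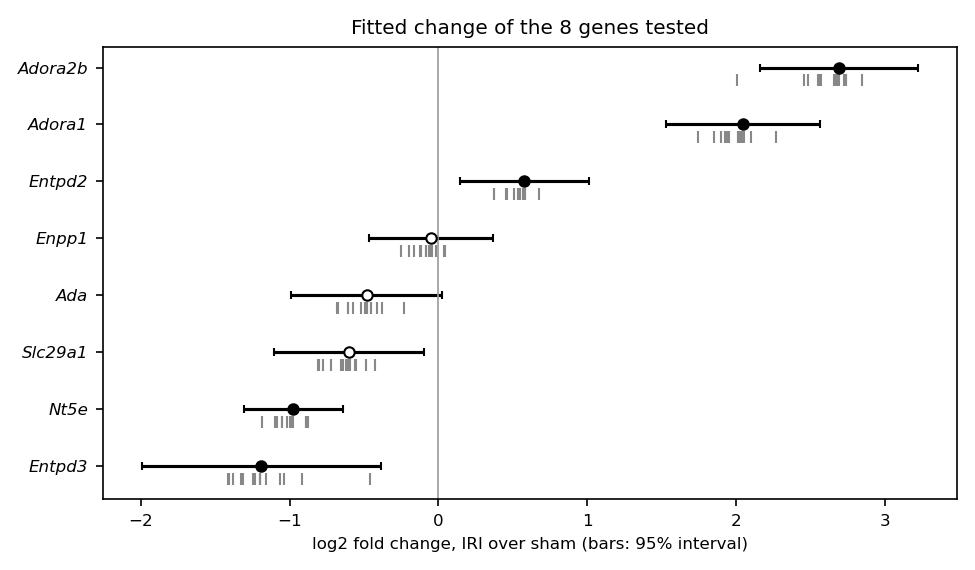
Log2 fold change (IRI over sham) of the 8 genes tested; bars are 95% intervals, filled points were called at an adjusted p under 0.05, open points were not, and grey ticks are the values under the 15 alternatives. The ticks of Adora1 (1.75 to 2.27), Adora2b (2.01 to 2.85) and Nt5e (-1.18 to -0.88) stay on the side of their main value, and those of Enpp1 fall on both sides of 0.

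The 10 genes were put in order per unit of length, whereas the marker sums and the leading marker of each list were taken from CPM. In sham, the order by mean RPKM was Nt5e at 10.7 ± 1.43, Slc29a1 at 10.2 ± 2.57, Ada at 6.00 ± 1.75, Adora1 at 4.08 ± 0.566, Entpd2 at 1.89 ± 0.0934, Adora2b at 1.39 ± 0.216, Enpp1 at 0.986 ± 0.131 and Entpd3 at 0.929 ± 0.248 (SD, n = 3), with Entpd1 at 0.0315 and Adora2a at 0.0109. The sample ranges of neighbours overlapped for Nt5e and Slc29a1, for Slc29a1 and Ada, for Enpp1 and Entpd3, and for Entpd1 and Adora2a. In IRI, Adora1 came first at 16.4 ± 4.71 RPKM and Adora2b second at 8.75 ± 2.21, ahead of Slc29a1 at 6.54 ± 1.46, Nt5e at 5.28 ± 0.644 and Ada at 4.19 ± 0.552, but each of these 5 overlapped with its neighbour in the order. Below them, Entpd2 at 2.75 ± 0.364, Enpp1 at 0.931 ± 0.163 and Entpd3 at 0.397 ± 0.136 were apart from each other, while Entpd3, Adora2a at 0.208 and Entpd1 at 0.116 overlapped in turn. In sham the leading genes coded for the adenosine-making enzyme and the transporter, and in IRI the top of the order was held by a receptor gene.

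The wider pathway was taken from a list of 65 further genes, of which 50 were tested, 14 rose, 13 fell and 23 had no call, beside 24.2% higher and 21.2% lower over all genes tested. Sham and IRI samples did not overlap for 36 of the 50, against 56.4% of all genes, and the median log2 fold change was -0.23, against 0.00 for all genes tested. Scaled by library size alone, 21 rather than 13 were called lower, beside 4337 rather than 2948 of all 13881 genes tested. The plot of these genes by role shows changes in both directions in 4 of the 6 groups; the count called in each group is small and stands beside the background of 45.5% called over all genes.

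Inside the cell, soluble 5'-nucleotidases make adenosine or other nucleosides from monophosphates. Of 6 tested, 3 rose and 2 fell (24.2% and 21.2% over all genes). Nt5c1a, whose product prefers AMP and is best known from muscle, had 5 reads in sham (0, 3 and 2) and 277 in IRI (118, 101 and 58), a ratio of 57.8 (95% exact counting interval 24.5 to 179; edgeR adjusted p = 0.000137). The 0 reads of sham sample 1 allow up to 0.118 CPM, and the IRI samples stood at 5.30, 4.63 and 2.80 CPM. The ratio was 93.7 without sham sample 2 and 36.0 without sham sample 1. Nt5c2, a purine-preferring nucleotidase, was at 67.1, 58.1 and 56.5 CPM in sham and 182, 171 and 187 in IRI (log2 fold change 1.57 ± 0.10, SE; edgeR adjusted p = 1.56e-05), with a wide gap between the groups. Nt5c3, which acts on pyrimidines, also rose (0.95 ± 0.10; adjusted p = 0.000153), and Nt5m of the mitochondria (-0.67 ± 0.12; adjusted p = 0.00221) and Nt5c3l (-0.54 ± 0.13; adjusted p = 0.00769) fell. Nt5c, named after its values were seen, had no call (-0.11 ± 0.13; edgeR adjusted p = 0.521). Nt5e, whose product acts on AMP at the surface, fell in the same samples in which 3 of these 6 genes rose and 2 fell.

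Of the other listed enzymes that act outside the cell, 3 of 6 were tested and 1 fell. This was Enpp2 (log2 fold change -1.15 ± 0.27 SE, edgeR adjusted p = 0.0107), whose product autotaxin mainly makes lysophosphatidic acid. This count and those of the next 2 groups stand beside 24.2% higher and 21.2% lower over all genes tested. Among the 4 NTPDase genes of internal membranes, Entpd7 rose (0.83 ± 0.17; adjusted p = 0.00352), and Entpd5 (-0.53 ± 0.11; adjusted p = 0.00484) and Entpd6 (-1.04 ± 0.23; adjusted p = 0.00547) fell. Of 6 further nucleoside transporter genes, 2 were tested. Slc29a2, a second equilibrative transporter, fell (-0.92 ± 0.29; adjusted p = 0.0295), a call lost without sham sample 2, sham sample 3 or IRI sample 3. The 3 concentrative transporter genes Slc28a1, Slc28a2 and Slc28a3, named after their values were seen, had 1, 7 and 3 reads in sham and 1, 1 and 0 in IRI.

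Of 13 tested genes of intracellular adenosine and AMP metabolism, 3 rose and 3 fell, a share near the 45.5% called over all genes. Pnp, which splits inosine and guanosine, went from 67.3 ± 6.01 to 194 ± 31.0 CPM (SD, n = 3; log2 fold change 1.53 ± 0.13, SE; edgeR adjusted p = 5.25e-05). Smaller rises were called for the salvage enzyme gene Hprt (0.40 ± 0.10; adjusted p = 0.0112) and the AMP deaminase gene Ampd3 (0.41 ± 0.15; adjusted p = 0.0466). The Hprt call was lost under library size alone (adjusted p = 0.0877) and without sham sample 3 (0.0594), and the Ampd3 call under 10 of 15 alternatives. Adk, whose kinase returns adenosine to AMP, fell modestly (-0.36 ± 0.11; adjusted p = 0.023), and this call was lost without sham sample 2 or IRI sample 1. Adal, an adenosine deaminase-like gene, fell (-0.89 ± 0.15; adjusted p = 0.00153), as did Dpp4 (-0.88 ± 0.21; adjusted p = 0.00789), whose product CD26 is known in humans to anchor adenosine deaminase at the cell surface.

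Downstream of the receptors, 22 genes of G proteins and cAMP signalling were tested; 7 rose and 4 fell, again near the 45.5% called over all genes. The inhibitory G protein gene Gnai3 rose from 104 ± 4.87 to 232 ± 13.1 CPM (SD, n = 3; log2 fold change 1.16 ± 0.09, SE; edgeR adjusted p = 3.61e-05), and the Gq-class gene Gnaq also rose (0.83 ± 0.10; adjusted p = 0.000204), while Gna11 of the same class fell (-0.77 ± 0.09; adjusted p = 0.000234). The stimulatory G protein gene Gnas, named after its values were seen, had no call (0.33, adjusted p = 0.0568). Adcy6, an adenylyl cyclase of the collecting duct, fell from 37.1 ± 2.74 to 19.3 ± 3.25 CPM (SD, n = 3; -0.94 ± 0.15, SE; adjusted p = 0.000987). Of the 4 cAMP phosphodiesterase genes listed, Pde4b rose (1.94 ± 0.15; adjusted p = 3.39e-05) and Pde4a fell (-1.07 ± 0.15; adjusted p = 0.000574). Pde4c and Pde4d were named after their values were seen; Pde4c fell too (-1.17 ± 0.23; adjusted p = 0.00475), and Pde4d had no call (-0.37 ± 0.31; adjusted p = 0.363).

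**Figure D4:**
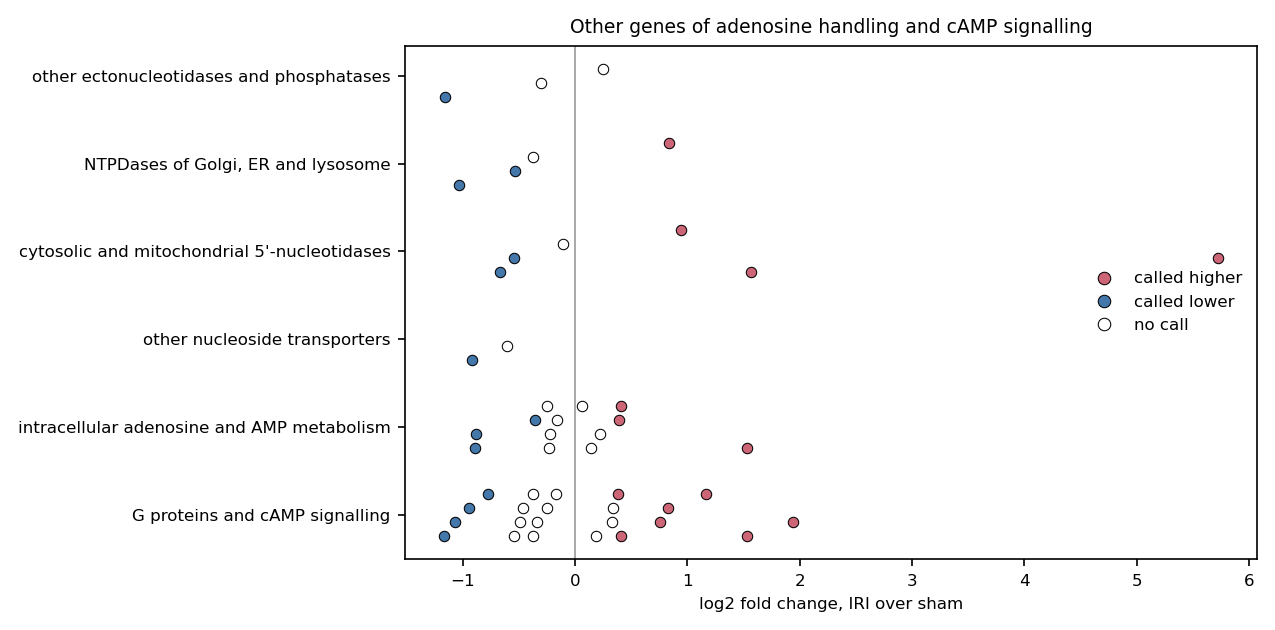
Log2 fold change (IRI over sham) of the 50 tested genes of adenosine handling and cAMP signalling outside the 10 genes, in rows by role; red points were called higher, blue points lower and open points had no call. The point farthest to the right is Nt5c1a, at 5.72 on a fitted scale that depends on the few sham reads.

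Adora2b and Nt5e were also compared with all genes of at least 1 in mean log2 CPM, by the root mean square distance between log2 CPM values centred on each gene's own mean over the 6 samples. Of 10120 genes, those nearest to Adora2b were Plec (distance 0.125), Itgb6 (0.141) and Nfkb2 (0.147), with log2 fold changes of 2.68, 2.45 and 2.71. Those nearest to Nt5e were Letm2 (0.0484), Gtf2i (0.0705) and Wdtc1 (0.0748), with changes of -0.97, -1.02 and -1.02. The distances describe 6 samples in 2 groups, so they rest mainly on the size of the difference between the groups.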

How the data were processed

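RNA of 6 sorted samples was isolated with a PicoRNA kit and made into libraries with SMARTer chemistry, per the labels' protocols. The deposited counts are whole numbers of reads per gene, not normalized and counted without strand, per the file headers and names. STAR, HTSeq, edgeR and mm9 are named in the submitters' processing notes, with no versions. The deposited RPKM values by the authors equal the counts divided by gene length and an effective library size, so they are no independent measurement. The 5 summary entries without a gene were removed from totals and tests; reads that mapped to several places made up 39.9% to 42.4% of each library.

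Samples were grouped by their titles, sham against IRI. The test was edgeR's (version 4.0.16, R 4.3.3) robust quasi-likelihood fit after filterByExpr and TMM scaling, with Benjamini-Hochberg adjustment over 13881 genes and calls at 0.05; biological variation between replicates was 19.04%. CPM values use TMM-scaled library sizes. The SE is the log2 fold change divided by the square root of F. Shares were tested by exact permutation over samples. Low genes have exact 95% counting intervals, which cover counting error only, since the reads carry no molecular identifiers. In data simulated for IRI against sham, with 13623 genes tested, 63 of 100 2-fold and 87 of 100 4-fold changes were called. So were 18 of 13429 unchanged genes. Few genes were changed in the simulation, whereas 45.5% were called in the data, so these rates need not hold for the calls reported here.

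The 10 genes and all lists were chosen with earlier results of these data known. Named beside them are, for each sub-list of the pathway, up to 3 genes called higher and 3 called lower with the smallest p, the 3 genes nearest in pattern to Adora2b and to Nt5e, and the highest member of each marker list; other genes were named after their values were seen. Alternatives were library size alone, upper-quartile scaling, DESeq2 1.42.0, limma-voom and limma 3.58.1 on log2(RPKM + 0.1) or log2(RPKM + 1), no filter, a stricter filter (30 reads in 3 samples), a replicate block and leaving out each sample. Promoter sequences are from RefSeq, GRCm38.p6.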

Additional observations from a re-analysis of the deposited data

How the results depend on the processing

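The calls of Adora1, Adora2b and Nt5e were kept under all 15 alternatives. Library size alone shifted the median log2 fold change of all genes to -0.20 and upper-quartile scaling to -0.12, and the share of calls that were higher went from 53.3% to 35.6% and 42.0%. Under library size alone 4 of the 10 genes were called lower instead of 2, and 21 of the other pathway genes instead of 13. Among all 13881 genes tested, the count called lower went from 2948 to 4337 under the same setting. Leaving out single samples gave 1 to 3 of the 10 genes called lower, with 1 without IRI sample 1, and 2 to 4 called higher. The count of higher calls includes Adora2a in 4 of these fits and Entpd1 in 1. Both passed the filter there only through their higher IRI samples. Among all genes, 2566 to 3172 were called higher and 2295 to 2734 lower. Entpd2 lost its call under library size alone (0.37, adjusted p = 0.151), upper-quartile scaling (0.45, 0.0773), no filter (0.54, 0.0903) and the replicate block (0.57, 0.0533), and without any sample other than IRI sample 3 (0.46 to 0.67). Slc29a1 gained a call under library size alone (-0.81, 0.0167), upper-quartile scaling (-0.72, 0.0279), DESeq2 (-0.61, 0.0183), no filter (-0.64, 0.0377) and the replicate block (-0.59, 0.0486), and ran from -0.80 to -0.43 with single samples left out. Ada gained one under library size alone (-0.68, 0.0261) and without sham sample 1 (adjusted p = 0.0406), and ran from -0.68 to -0.23. Enpp1 ran from -0.20 to 0.05 and changed sign without sham sample 1 (0.04) and without IRI sample 1 (0.047). Entpd3 ran from -1.42 to -0.92, and was -0.46 on log2(RPKM + 1), where low values are drawn together. The cause of these changes was not tested.

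Samples with the same replicate number deviated together with correlations of 0.182, 0.0952 and 0.178. For different numbers the correlations ran from -0.172 to 0.0297, so every same-number pair was above every other pair. Whether samples of the same number shared a day or batch is not stated, and the main fit did not pair them. The replicate block gave 3368 genes higher and 3095 lower and changed the calls of Entpd2 and Slc29a1 among the 10 genes, and the permutation p for the Adora2b and Entpd3 shares was 0.25 with it, the smallest possible. Depth limits Adora2a and Entpd1, whose read ratios ran from 13.3 to 24.5 and from 2.69 to 6.54 over 8 alternatives chosen after seeing the data.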
